A study of Homo sapiens with 7 samples.

Results

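The proteins of the mitochondrial ribosome were examined as a set of 77 genes of the 19112 targeted in a genome-wide CRISPR knockout screen. They were taken by symbol, as every guide RNA whose target gene is named MRPL or MRPS followed by a number and, for some, a letter from A to C. This gave 308 of 77441 guides, with 4 guides for each gene. By name, 48 genes (192 guides) belong to the large subunit and 29 genes (116 guides) to the small subunit. A further 6 mitoribosomal proteins in the library carry other names (DAP3, PTCD3, AURKAIP1, CHCHD1, GADD45GIP1 and ICT1) and were kept apart as a comparison list.

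The mitochondrial ribosome translates the mRNAs encoded in mitochondrial DNA, whose products are core subunits of the respiratory chain and of ATP synthase. All of its proteins are encoded in the nucleus, made in the cytosol and imported. Some have counterparts in bacterial ribosomes, and others occur only in mitochondria. Its large subunit forms peptide bonds and holds the exit tunnel, and its small subunit holds the mRNA and the decoding centre.

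The screen was made in HCT116, a human colorectal carcinoma line, carrying a GFP reporter of OGT intron splicing at the AAVS1 locus. Every cell library came from one clonal reporter line, infected with the Brunello guide library at an MOI of 0.3 and kept on puromycin for 8 days from day 2. All of these cells also received 1 µM TG (thiamet G, an inhibitor of the O-GlcNAcase OGA) on day 9 for 24 h, with fresh inhibitor every 12 h, and the libraries analysed here include none from cells without it. The sorted group (n = 3) held the cells with high GFP on day 10, and the input group (n = 3) held unsorted cells. One library of the guide pool (n = 1) served as the reference for the abundance of each guide. The sources describe it either as unselected cells or as plasmid, and a ratio to it shows loss during culture only as far as the pool stands for the cells at the start. The pilot replicate had 100-fold coverage and the others 300-fold, and the deposited values do not show which library is the pilot, so libraries are numbered 1 to 3 by their place in the data. Results from 1 clone hold for that clone.

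Cell libraries held 26.2 to 31.0 M reads, and the guide pool 35.8 M. The median guide had 302 to 321 reads in input and 263 to 313 in sorted libraries. The sources name no molecular identifiers, so counts describe reads rather than cells. The median gene of the whole screen, as the mean over its guides, lay below input in the sorted libraries, at -0.56 on the log2 scale. Gene changes are therefore also given relative to the median of all genes. Guide by guide, the median was -0.20 for all targeting guides and -0.08 for the 1000 non-targeting guides. The gene value of -0.56 is thus not a like measure to set beside the non-targeting guides.

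The guides of MRPL44 and MRPS14 are shown first, because these 2 genes had the lowest abundance in input cells relative to the guide pool. Positions are on GRCh38, the guide is in lower case, 5′ to 3′, and the capitals mark the PAM that follows it in the genome.
MRPL44 exon 2 (chr2:223959719-223959738, plus strand): atcaagaactatccgaacaaGGG
MRPL44 exon 2 (chr2:223959787-223959806, plus strand): tacccagacatgcccactgaAGG
MRPL44 exon 1 (chr2:223957550-223957569, minus strand): tcttcactccccgaaccggaGGG
MRPL44 exon 2 (chr2:223959917-223959936, minus strand): agtctgctgtaacacagctgGGG
MRPS14 exon 2 (chr1:175018451-175018470, minus strand): ggctacgtattaattcactcAGG
MRPS14 exon 3 (chr1:175014799-175014818, plus strand): ctaacaggacagctatcccgGGG
MRPS14 exon 1 (chr1:175023361-175023380, minus strand): tgcggacgttcaagcaggtcAGG
MRPS14 exon 2 (chr1:175018529-175018548, minus strand): ttcgaagtcactatgtagacTGG

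The guides of MRPS7 and MRPL11 follow, the members with the smallest p for enrichment in the sorted cells.
MRPS7 exon 3 (chr17:75262857-75262876, minus strand): gctgtttacctgaatcatgaGGG
MRPS7 exon 2 (chr17:75262521-75262540, minus strand): ccttgaattcaggactatagCGG
MRPS7 exon 2 (chr17:75262560-75262579, plus strand): atattatcgcaagccagtggAGG
MRPS7 exon 4 (chr17:75263453-75263472, plus strand): ctgtgagcctatgattgggcTGG
MRPL11 exon 2 (chr11:66438162-66438181, plus strand): accttcactaaaatcttggtAGG
MRPL11 exon 3 (chr11:66437388-66437407, plus strand): ttcaggaagtaggaaacagtGGG
MRPL11 exon 4 (chr11:66437201-66437220, minus strand): gattgcccgcatcaaagctcAGG
MRPL11 exon 4 (chr11:66437225-66437244, plus strand): acacatgcttcaaggtcaccAGG

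The guides of MRPL37 are those of the member with the smallest p for depletion. The guides of MRPL38 and MRPL48 that had no read in any sorted library are added here, and were chosen after their values were seen.
MRPL37 exon 1 (chr1:54200322-54200341, plus strand): agacgcggggcgtatgagtgGGG
MRPL37 exon 1 (chr1:54200422-54200441, minus strand): gaagtgcatcttccccgcaaAGG
MRPL37 exon 1 (chr1:54200554-54200573, minus strand): acggtggtgaaagatatagcAGG
MRPL37 exon 4 (chr1:54210083-54210102, minus strand): cattcatgaagatcgatgatGGG
MRPL38 exon 2 (chr17:75904552-75904571, minus strand): gacctaccgagagtatttcgGGG
MRPL48 exon 5 (chr11:73844955-73844974, plus strand): tctccattaaagtcgaggaaAGG

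Last come 3 guides of MRPS36, whose protein is now assigned to the 2-oxoglutarate dehydrogenase complex and not to the ribosome. The fourth guide of this gene also matches the pseudogene MRPS36P1 and is not shown.
MRPS36 exon 1 (chr5:69217841-69217860, plus strand): caagatggcgtctgctagtaGGG
MRPS36 exon 2 (chr5:69226380-69226399, plus strand): agagacaatcctaaacccaaTGG
MRPS36 exon 3 (chr5:69228277-69228296, plus strand): ccagatttgctgatgtatcaGGG

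The member guides were spread over 21 chromosomes. Of the 308 guides, 305 had 1 perfect site next to an NGG in the genome, and 3 had 2 sites (1 guide each of MRPS36, MRPS17 and MRPL45). The predicted cut lay in coding sequence of the canonical transcript for 307 guides and in an intron for 1 guide, of MRPS24. Cuts lay at a median of 35.1% of the coding sequence, between 1.96% and 91.2%. The median GC content was 50%, as for all targeting guides.

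The first comparison set the abundance of each guide in input cells on day 10 against the guide pool, as a measure of how far cells with a mitoribosomal knockout had been lost. Guides to mitoribosomal proteins were close to the level of other genes. The median log2 ratio of input to pool over the 77 members was -0.11, -0.05 and -0.05 in input libraries 1 to 3 and -0.09 in their mean, a 0.941-fold level, against -0.01 for all genes. The 1000 non-targeting guides had a median of 0.33 on the same scale, which sets the median guide of each library to 0. There was 1 pool library, so these ratios have no test, and an SD given with them is that between the 3 input libraries.

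A log2 ratio at or below -0.5 in each input library was reached by 2 of 77 members (2.60%), MRPL44 and MRPS14, against 4.54% of all genes. No member lay at or below -1 in each library, where 0.853% of all genes did. Scaled to the non-targeting guides instead, 16 members (20.8%) lay at or below -0.5 and 1 (1.30%) at or below -1, against 17.2% and 2.33% of all genes. Without input library 1, 4 members (5.19%) lay at or below -0.5 and 0 at or below -1, against 7.55% and 1.32% of all genes. Below 0 in each library were 32 members (41.6%), against 34.2% of all genes. Of the 1000 lowest genes, 1 was a member, and 6 members were in the lowest 10% of all genes, 2 of the large and 4 of the small subunit. The median member stood at the 40.2 percentile of all genes.

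The subunits had like medians in this comparison. The large subunit had a median log2 ratio of -0.12, -0.02 and -0.12 in input 1 to 3, and the small subunit of -0.11, -0.13 and -0.01. Their means over libraries were both -0.09, 0.943-fold and 0.940-fold, and the quartiles ran from -0.22 to 0.18 for the large and from -0.39 to 0.11 for the small subunit. Each subunit had 1 gene at or below -0.5 in each library. Members listed as having a bacterial counterpart (46 genes) had a median of -0.09, and the rest (31 genes) of -0.06. MRPS18A and MRPS18B were counted in the rest, although they are homologues of the same bacterial protein as MRPS18C, which was in the first class.

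Cytosolic ribosomal proteins, which translate nuclear-encoded mRNAs, gave a view of a ribosome whose guides were far lower on the same scale. Their 77 genes had a median of -1.17, a 0.444-fold level, with 53 genes (68.8%) at or below -0.5 in each library and 32 at or below -1. Olfactory receptors had a median of 0.06 over 374 genes, with 10 (2.67%) at or below -0.5. The mitoribosomal value lay nearer to the second list than to the first.

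The other genes of mitochondrial gene expression lay within the same narrow range. Oxidative phosphorylation subunits, among which are partners of the mitoribosome's products, had a median of -0.12 over 80 genes, with 5 (6.25%) at or below -0.5. The list of mitochondrial aminoacyl-tRNA synthetases, which charge tRNAs, had -0.17 over 21 genes. It was drawn up with GARS and KARS, which also encode the cytosolic enzymes, and with amidotransferase subunits such as QRSL1. Its value is thus not that of mitochondrial synthetases alone. Mitochondrial translation factors (17 genes) and mitoribosome assembly factors (27 genes) both had -0.07. Genes of mitochondrial DNA maintenance and transcription (18 genes) had -0.05. At or below -0.5 in each library were 1 gene of the synthetase list, 1 translation factor, 2 assembly factors and no gene of DNA maintenance. The 6 mitoribosomal proteins under other names had a median of -0.14, and none reached -0.5.

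MRPL44, a large subunit protein with an RNase III-like fold, had the lowest ratio of all members. It lay at -0.80, -0.89 and -0.86 in input 1 to 3 (mean -0.85 ± 0.04 SD, n = 3), a 0.554-fold level and rank 471 of 19112 genes. All of its 4 guides were below 0 in each library. The first exon 2 guide shown above had 762 reads in the pool and 307, 250 and 318 reads in input, at a ratio of -1.04. The exon 1 guide had 649 pool reads and 264, 269 and 302 input reads, at -0.87. The lower counts were shared by guides cutting in separate exons, though the gene was picked for the low mean of these same guides. The exon 2 guides at chr2:223959787 and chr2:223959917 had ratios of -0.89 and -0.61.

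MRPS14, a head protein of the small subunit, followed at -0.59 ± 0.05 (SD, n = 3). Here 3 guides and the fourth went opposite ways. The guide at chr1:175018451 had 493 pool reads and 193, 227 and 140 input reads, a ratio of -1.07, and the exon 3 and exon 1 guides had -0.90 and -0.65. The guide at chr1:175018529, also in exon 2, had 513 pool reads and 493, 420 and 537 input reads, a ratio of 0.26.

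The next lowest members were mostly small subunit proteins. They were MRPS2 at -0.57 ± 0.34 and MRPS7 at -0.55 ± 0.05, both of the head, and MRPS12, of the decoding centre, at -0.49 ± 0.20, whose 4 guides were all below 0 in each library. MRPL21 had -0.48 ± 0.19, MRPL11 -0.45 ± 0.15 and MRPS22, a protein without a bacterial counterpart, -0.43 ± 0.28 (SD, n = 3 each). Among these the libraries disagreed most for MRPS2, which lay at -0.20 in input 1 and at -0.86 and -0.66 in the other libraries. At the upper end were MRPS15 at 0.67 ± 0.15, MRPS17 at 0.52 ± 0.18, MRPL36 at 0.45 ± 0.21 and MRPS33 at 0.42 ± 0.14, so the members spread to both sides of 0.

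The structural groups held selected proteins, and many members were in none of them, so a group's median depends on which proteins were listed. Among the groups as listed, the small subunit head was the lowest. It had a median of -0.55 over its 5 genes (-0.39, -0.56 and -0.55 in input 1 to 3). MRPS10 had -0.39 and MRPS9 0.21, so the listed head proteins were spread over both sides of 0. The list leaves out other head proteins. MRPS24 (listed with mRNA entry), MRPS31, MRPS33 and MRPS35 had -0.09, 0.03, 0.42 and 0.11. The head median therefore holds only for the 5 genes listed. The platform (4 genes) had a median of -0.23, the base and stalk of the L7/L12 proteins (3 genes) -0.21, the exit tunnel rim (6 genes) -0.17, the decoding centre and mRNA entry (3 genes) -0.09, the peptidyl transferase region (5 genes) -0.07 and the central protuberance (5 genes) -0.05. No listed group other than the head had a median at or below -0.5.

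Single guides gave the same picture. At or below -1 in each input library were 10 of 308 guides (3.25%), against 3.29% of all guides, and these were 1 guide each of 10 genes (MRPL28, MRPL30, MRPL43, MRPL55, MRPS7, MRPS16, MRPS18C, MRPS22, MRPS23 and MRPS30). The guide counts below 0 in each library were spread as 12 genes with no such guide, 26 with 1, 27 with 2, 10 with 3 and 2 with all 4, the last being MRPL44 and MRPS12, a share of 2.60% against 1.91% of all genes. The median ratio was alike along the coding sequence. It was -0.03 for the 73 guides cutting in the first 20%, -0.02 for the 105 between 20% and 40%, and -0.03 for the 129 further on.

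The second comparison asked which knockouts were more or less frequent among cells with high GFP, the state that the reporter takes when the OGT intron is spliced. It uses the same input libraries as the first, so a gene's values in both share those samples. No mitoribosomal gene was called enriched, against 0.314% of all genes, and none depleted, against 0.00523%. The call was robust rank aggregation (RRA) of one-sided limma p-values of guides at an adjusted p below 0.05. At an unadjusted p below 0.05, RRA gave 4 enriched members (5.19%) against 5.47% of all genes, and 7 depleted members (9.09%) against 5.53%. Limma on gene means also called 0 members in either direction after adjustment, against 0.0157% of all genes higher and 0% lower. Unadjusted, it gave 2 members higher against 1.96% of all genes, and 17 lower (22.1%) against 13.9%. The edgeR test on summed reads called 0 members after adjustment, against 0.272% of all genes higher and 0% lower. Unadjusted, it gave 3 members higher (3.90%) against 5.28% of all genes, and 2 lower (2.60%) against 2.76%.

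The distribution of the members was wide and lay slightly below that of all genes. Relative to all genes their median log2 fold change was -0.27, -0.17 and -0.06 in sorted libraries 1 to 3 and -0.14 in the fit, with quartiles of -0.89 and 0.53. It was 0.037 without sorted library 1. Sorted values lay above all input values for 3 members (MRPS7, MRPL11 and MRPS16), 3.90% against 4.56% of all genes, and below all input values for 22 members (28.6%), against 22.9%. Above the median of all genes in each sorted library were 14 members (18.2%) against 17.1%, and below it 19 (24.7%) against 16.9%.

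Single guides showed no large excess in the sorted cells. No member guide was 8-fold or more over mean input in any sorted library, against 0.543% of all guides. None was 2-fold or more over it in each sorted library, against 0.953%. At 0 reads in at least 1 sorted library were 66 member guides (21.4%), against 20.4% of all guides, namely 28, 34 and 21 guides in sorted 1 to 3.

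The medians of large and small subunit members were set side by side, with no test. The large subunit had a median of -0.39, -0.61 and -0.08 relative to all genes in sorted 1 to 3, and -0.35 in the fit. The small subunit had -0.21, 0.37 and 0.00, and 0.05 in the fit. The difference of medians, large minus small, was -0.40, and it was 0.01 with edgeR on summed reads and -0.16 with a pseudocount of 10. Unadjusted RRA gave 2 enriched (4.17%) and 6 depleted (12.5%) genes of the large subunit, and 2 enriched (6.90%) and 1 depleted (3.45%) of the small, against 5.47% and 5.53% of all genes. With MRPS18A and MRPS30 moved to the large subunit, where their proteins sit, and MRPS36 left out, the difference was -0.42.

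Guide abundance moved with this split. Large subunit guides had a median of 343 pool reads and a mean input count of 230, against 484 and 286 for the small subunit and 393 and 262 for all targeting guides. In the sorted cells 26.0% of large and 13.8% of small subunit guides were at 0 in at least 1 library, against 20.4% of all guides. Over all guides the log2 fold change followed input level, at a median of -1.68 for a mean input under 100, -1.06 from 100 to 200, -0.14 from 200 to 400 and 0.02 above. Within these bands, which were chosen after the values were seen, the large subunit had -1.78, -0.97, -0.27 and 0.04 and the small subunit -3.04, -0.31, -0.10 and 0.12. The 2 extreme bands hold 12 and 29 large and 5 and 33 small subunit guides, and the part of input level in the difference was not tested.

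Among the large subunit groups, the stalk and its base stood highest in the fit and the peptidyl transferase region lowest. The L7/L12 stalk, which recruits translation factors, had a median of 0.82, 0.46 and 0.23 relative to all genes in sorted 1 to 3, and 0.58 in the fit. These medians over 3 genes are the values of MRPL11, MRPL12 and MRPL10 in turn, and of MRPL12 in the fit. MRPL10 stood at -1.61 in sorted 2 and MRPL12 at -0.53 in sorted 3, and only MRPL11 was above 0 in each. The order of the groups was not the same in every library. The exit tunnel rim was the lowest in sorted 1, at -0.97, and the central protuberance the highest in sorted 2, at 0.47. MRPL11, at the base of the stalk, had geometric mean counts over its guides of 279, 246 and 227 in input and 378, 543 and 285 in sorted cells. The groups did not overlap, although the highest input and the lowest sorted library differed by a few counts. The log2 fold change was 0.63 ± 0.33 (SE), or 1.19 relative to all genes, with an RRA adjusted p of 0.664 (unadjusted 0.0116, exact null). With edgeR on summed reads it stood at 0.54 relative to all genes. Guide by guide the excess was uneven. The guide at chr11:66437225 had 659, 542 and 571 counts in input and 957, 1155 and 786 in sorted cells, while that at chr11:66437388 had 222, 187 and 253 in input and 731, 329 and 121.

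MRPL12, the L7/L12 protein itself, had 192, 224 and 167 in input and 410, 169 and 109 in sorted cells. One sorted library was above and the others were within or below the input range. Its log2 fold change was 0.02 ± 0.55 (SE), or 0.58 relative to all genes, with an RRA adjusted p of 0.905 by the exact null. The third member of the group, MRPL10, which anchors L7/L12, lay at -0.14 relative to all genes, with 52 counts in sorted 2 against 290 and 238 in the other sorted libraries.

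The peptidyl transferase region holds proteins that line or approach the site of peptide bond formation. Its 5 genes had a median of -0.58, -1.45 and -2.12 relative to all genes in sorted 1 to 3, and -1.06 in the fit. MRPL16 had -1.78, MRPL2 -1.39, MRPL4 -1.06, MRPL3 -0.99 and MRPL27 -0.83. For MRPL16 the input counts were 189, 185 and 212 and the sorted counts 44.5, 44.9 and 26.7, with no overlap. The limma adjusted p of MRPL16 was 0.187 (unadjusted 0.0025), and its RRA p for depletion was 0.111 by the exact null. Of the 20 guides of this group, 9 (45.0%) were at 0 in at least 1 sorted library, against 20.4% of all guides. Its guides were also less abundant in the pool and in input, with a median of 315 pool reads and of 243, 228 and 214 input reads. All targeting guides had medians of 393 pool reads and of 318, 299 and 303 input reads. The part of this lower abundance in the group's value was not tested. MRPL2 and MRPL3 were high in 1 sorted library each, at 1.01 in sorted 3 and 0.75 in sorted 1 relative to all genes.

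At the exit tunnel rim, where the new chain leaves the ribosome, the median was -0.32 over 6 genes. MRPL23, at the tunnel exit, was the lowest at -2.15 relative to all genes, with 145, 187 and 193 counts in input and 57.7, 19.9 and 14.7 in sorted cells. MRPL47 was the highest at 0.45. MRPL45, which holds the ribosome at the inner membrane, had -3.45, 0.58 and 1.00 in sorted 1 to 3, so 1 library carried its low value.

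The central protuberance, which faces the small subunit head, had a median of 0.18 over 5 genes, and its members diverged. MRPL46 stood at 0.87 relative to all genes, with 266, 306 and 262 counts in input and 197, 319 and 641 in sorted cells, and the groups overlapped (log2 fold change 0.31 ± 0.44 SE, RRA adjusted p 0.934 by the exact null). MRPL18, a 5S rRNA-binding protein in bacteria, had 0.81 and MRPL40 had 0.18. MRPL38 stood at -1.82, with 180, 241 and 178 in input and 23.8, 33.0 and 64.9 in sorted cells. The exon 2 guide of MRPL38 shown above was 1 of 3 member guides called by limma (adjusted p 0.0376), against 0.682% of all guides. It had 98.7, 173 and 108 counts in input and 0 in each sorted library, at least 42.9-fold lower with a floor of 3 reads per library. This floor, also used below, bounds reads and not cells. Of all guides, 20.4% were at 0 in at least 1 sorted library. With 0 in each, the sorted values did not vary, so only the input counts added spread to the guide's test.

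MRPL48, also of the central protuberance, had 156, 168 and 168 counts in input and 90.7, 26.7 and 117 in sorted cells, all lower. The log2 fold change was -1.30 ± 0.67 (SE), or -0.74 relative to all genes, and the RRA adjusted p was 0.827 (unadjusted 0.0179, exact null). The exon 5 guide shown above was called by limma at an adjusted p of 0.0376. It had 11 pool reads, 12, 30 and 26 input reads and 0 in each sorted library, at least 6.64-fold lower. With guides under a mean input of 100 left out, MRPL48 stood at 0.15 relative to all genes, with edgeR on summed reads at 0.20, and as the median of its guides at -0.57.

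MRPL37, a protein particular to mitochondria, had the smallest p for depletion. Its counts were 86.0, 104 and 141 in input and 26.4, 15.3 and 43.8 in sorted cells, without overlap. The log2 fold change was -2.01 ± 0.62 (SE), or -1.45 relative to all genes, with an RRA adjusted p of 0.561 (unadjusted 0.00213, exact null). Relative to all genes it stood at -0.72 with guides under a mean input of 100 left out, at -0.71 with a pseudocount of 10 and at -0.55 with edgeR on summed reads. The exon 1 guide at chr1:54200322 was called by limma at an adjusted p of 0.0376. It had 18 pool reads and 20, 28 and 27 input reads, was at 0 in each sorted library, and was at least 7.28-fold lower. The other guides were mixed, and that at chr1:54200554 had 112, 116 and 199 counts in input and 74.2, 561 and 119 in sorted cells.

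The 3 called guides all belonged to the large subunit and were the member guides with 0 reads in all 3 sorted libraries (0.974%), against 0.939% of all guides. Of the others at an unadjusted RRA p below 0.05 for depletion, MRPL50 had 141, 137 and 155 counts in input and 11.8, 11.1 and 106 in sorted cells, a log2 fold change of -2.51 ± 0.91 (SE, adjusted p 0.861 by the exact null). Relative to all genes MRPL50 stood at -1.95, and at -0.47 with edgeR on summed reads. MRPL19 and MRPL57 lay at -1.68 and -2.21 relative to all genes, the second being the lowest member. MRPL19 had 12.8 and 24.9 counts in sorted 1 and 2 but 309 in sorted 3, above its input range of 219 to 236.

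The small subunit head held MRPS7, the member with the highest value of all. MRPS7 contacts the mRNA exit and the tRNA path in its bacterial counterpart. It had 368, 344 and 356 counts in input and 723, 673 and 441 in sorted cells, each sorted library above each input library. The log2 fold change was 0.75 ± 0.24 (SE), or 1.31 relative to all genes (1.24, 1.56 and 0.60 in sorted 1 to 3). The RRA adjusted p was 0.637 (unadjusted 0.0102, exact null) and the limma adjusted p 0.222, so MRPS7 passed neither test. With edgeR on summed reads it stood at 0.57 relative to all genes.

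The guides of MRPS7 shared this direction in their fits to different degrees. The guide at chr17:75262560 had 605, 495 and 501 counts in input and 925, 1413 and 712 in sorted cells, all higher. The guide at chr17:75262857 had 206, 189 and 129 in input and 918, 471 and 121 in sorted cells, higher in 2 libraries of 3. The guides at chr17:75262521 and chr17:75263453 overlapped between the groups, with 488, 267 and 701 and with 659, 1152 and 625 counts in sorted cells against 257, 273 and 283 and 574, 547 and 874 in input.

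The other listed head proteins were spread around the median of all genes. MRPS2 had 204, 129 and 149 counts in input and 377, 301 and 113 in sorted cells, a log2 fold change of 0.57 ± 0.55 (SE, RRA adjusted p 0.930 by the exact null). MRPS14 stood at 0.19, MRPS9 at -0.14 and MRPS10 at -0.95 relative to all genes. MRPS10 had no overlap, with 203, 181 and 227 counts in input and 80.3, 72.7 and 60.6 in sorted cells (limma adjusted p 0.222, unadjusted 0.0138).

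In the body of the small subunit, MRPS16 had 276, 362 and 331 counts in input and 442, 499 and 516 in sorted cells, with no overlap. Its log2 fold change was 0.59 ± 0.23 (SE), or 1.15 relative to all genes, with adjusted p-values of 0.906 by RRA (exact null) and 0.275 by limma. It stood at 0.58 as the median of its guides and at 0.51 with edgeR on summed reads. The decoding centre and mRNA entry had a median of 0.09, and the platform had -0.20. None of the 12 decoding centre guides was at 0 in a sorted library, against 20.4% of all guides at 0 in at least 1. The platform differed between libraries, with -1.79, 0.25 and -0.42 in sorted 1 to 3.

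MRPS18A, MRPS30 and MRPS36, whose place differs from their name, were set beside MRPS18B, and the 4 were spread widely. MRPS30, a large subunit protein despite its name, had 310, 333 and 301 counts in input and 48.6, 51.7 and 222 in sorted cells, all lower. Its log2 fold change was -1.92 ± 0.65 (SE), or -1.36 relative to all genes, with an RRA adjusted p of 0.799 (unadjusted 0.0112, exact null), and its input to pool ratio was -0.39 ± 0.08 (SD, n = 3). MRPS18A, also in the large subunit, and its paralog MRPS18B, in the small, stood at 0.73 and 0.82 relative to all genes, with fold changes of 0.17 ± 0.22 and 0.26 ± 0.33 (SE, log2). With edgeR on summed reads MRPS18A stood at -0.010 and MRPS18B at 0.18, and MRPS18B also stood at 0.18 as the median of its guides.

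MRPS36 stood at -0.74 relative to all genes (log2 fold change -1.30 ± 0.53 SE, limma adjusted p 0.300) and at -0.09 ± 0.08 (SD, n = 3) from pool to input. Its guides disagreed. The exon 2 guide had 58.4, 64.8 and 62.5 counts in input and 0, 442 and 0 in sorted cells, whereas the exon 3 guide shown above had 251, 186 and 251 in input and 246, 193 and 353 in sorted cells. The exon 1 guide had 341, 268 and 359 in input and 114, 2.29 and 362 in sorted cells. Relative to all genes it stood at 0.17 as the median of its guides and at -0.20 with edgeR on summed reads. EdgeR on summed reads also gave -0.86 for MRPS30, 0.72 for MRPS2 and 0.29 for MRPL46 on this scale, each nearer to 0 than the value from guide means.

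Members listed as having a bacterial counterpart had medians of -0.11, 0.38 and -0.08 relative to all genes in sorted 1 to 3, and -0.13 in the fit. The rest, MRPS18A and MRPS18B included, had -0.34, -0.33 and 0.00, and -0.19 in the fit, so the 2 classes lay furthest apart in sorted 2. Unadjusted RRA gave 4 enriched (8.70%) and 1 depleted (2.17%) of the 46 conserved genes, and 0 enriched and 6 depleted (19.4%) of the 31 others, against 5.47% and 5.53% of all genes. The 6 depleted genes were MRPL37, MRPL38, MRPL48, MRPL50, MRPL57 and MRPS30, whose proteins all sit in the large subunit. With edgeR on summed reads MRPL37, MRPL50 and MRPS30 stood at -0.55, -0.47 and -0.86 relative to all genes, and MRPL48 at 0.20. The difference between the classes, and the part of subunit and guide abundance in it, were not tested.

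None of the other mitochondrial lists held a called gene in the sorted cells by RRA either. At an unadjusted p below 0.05, where 5.47% of all genes were enriched and 5.53% depleted, RRA gave 2 enriched (2.50%) and 6 depleted (7.50%) of 80 oxidative phosphorylation subunits. It gave 0 and 4 (14.8%) of 27 assembly factors, and 1 (4.76%) and 0 of 21 genes of the aminoacyl-tRNA synthetase list. It gave 1 (5.56%) and 1 (5.56%) of 18 genes of mitochondrial DNA maintenance, and 0 and 0 of 17 translation factors. Their medians relative to all genes were 0.13, -0.12, 0.29, -0.04 and -0.36. The cytosolic ribosomal proteins had 6 (7.79%) and 10 (13.0%) of 77 genes, at a median of -0.12. Of the mitoribosomal proteins under other names, PTCD3 and CHCHD1, both of the small subunit, had an unadjusted p below 0.05 for enrichment and stood at 0.93 and 1.04 relative to all genes, while the median of all 6 was 0.00.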

How the data were processed

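Guide abundance was measured in 3 input, 3 sorted and 1 guide pool library. Per the submitters' processing notes, the authors used FastQC 0.11.9, cutadapt 3.3 and MAGeCK, whose version is not given in the sources used here. The authors deposited a normalised count per guide and cell library, and a raw count per guide for the pool, which the sources describe either as unselected cells or as plasmid. The deposited fold changes, p-values, scores and ranks are the authors' own comparison and were not used. Normalised counts were whole reads times 1 factor per library (tolerance 0.1 read, 100% of values whole).

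Guides at 0 in all 6 cell libraries were left out, so 77388 guides were tested, among them all 308 members. Limma 3.58.1 under R 4.3.3 (eBayes with a trend) fitted log2(normalised count + 1) of each guide. Enrichment and depletion of genes were then tested by robust rank aggregation of one-sided guide p-values (alpha 0.25, exact null for the number of guides), with Benjamini-Hochberg adjustment over all genes and a threshold of 0.05. Gene fold changes came from limma on the mean over guides. EdgeR 4.0.16 was run on recovered reads. Input to pool ratios used a pseudocount of 1 and were scaled to the median guide. Guides were matched to GRCh38 as complete guides followed by NGG and annotated with GENCODE 44. Code was run in python 3.11.15 with pandas 2.3.3 and scipy 1.17.1 and tested on simulated data. Limma p-values reflect the variation among libraries that the labels call biological replicates, while the null of the rank aggregation is over guides.

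Named were members called in any test over all genes, the 6 and 4 members with the smallest p for enrichment and depletion, the 8 lowest and 4 highest by input to pool ratio, and MRPS18A, MRPS18B, MRPS30 and MRPS36. Others were named after their values were seen, among them the members of structural groups. Members, lists and tests were chosen with earlier results of these data known. Alternatives were another pseudocount, filters, scalings, gene summaries and tests, a replicate block, and leaving out each library.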

Additional observations from a re-analysis of the deposited data

How the results depend on the processing

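No member was called in either direction under any alternative run, a count that cannot show which smaller changes were missed at 3 libraries per group. Relative to all genes, the members' median in sorted cells lay between -0.15 and 0.037 on leaving out 1 library (0.037 without sorted library 1), the large subunit's between -0.35 and -0.23, the small subunit's between -0.01 and 0.31, and the difference, large minus small, between -0.54 and -0.22. With edgeR on summed reads the large subunit stood at -0.035 and the difference at 0.01. From pool to input, scaling to the non-targeting guides moved the medians to -0.41 for the members, -0.41 for the large and -0.41 for the small subunit, with all genes at -0.33 and the members -0.08 from them under both scalings. The members at or below -0.5 in each input library then numbered 16 (20.8%) and those at or below -1 numbered 1 (1.30%), against 17.2% and 2.33% of all genes. With a gene as the median of its guides the members' ratio was -0.043. On leaving out 1 input library it lay between -0.11 and -0.06, and the members at or below -0.5 numbered 2 to 4 (4 without input library 1, or 5.19% against 7.55% of all genes). All genes called enriched numbered 19 without sorted library 2 and 20 without sorted library 3, against 60. The median of all genes in sorted cells was -0.30 with a pseudocount of 10, -0.78 with equal totals and -0.11 with guide medians. Cell libraries in the same place correlated at 0.159, 0.0662 and 0.0556 in their deviations from group means. Those in different places correlated at -0.112 to 0.040, so each same-place value was the higher, though all were weak. The main tests did not take the places as pairs. A replicate block by place left 0 members called enriched, 0 depleted and a median of -0.14. With it, all genes called enriched numbered 76, against 60. Causes of these shifts were not tested. A mean input under 100 was found for 5.52% of member guides and 7.51% of all targeting guides.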
